A study of Mus musculus with 24 samples.

Results

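Dendritic cells that lack both Lyn and Irf5 (DKO) were set against dendritic cells that lack Lyn alone (Lyn-KO), both after stimulation with CpG-B. The comparison took the 3 arrays titled DKO CpG-B and the 3 titled Lyn-KO CpG-B, 6 of the 24 arrays of the series. It asks which part of the transcriptional response to CpG-B depends on Irf5 when Lyn is missing. The cells were grown from bone marrow of C57BL/6 mice for 9 days with human Flt3 ligand at 100 ng/ml, a culture that yields a mixture of plasmacytoid and conventional dendritic cells. They then received CpG-B at 150 nM for 6 h or no stimulus. Both groups carry the Lyn knockout, and they differ by label in the Irf5 knockout. Unstimulated DKO and Lyn-KO cells, and Irf5-KO and WT cells with CpG-B, 3 arrays each, are used below as comparisons. The labels give neither the way the alleles were made nor the animals behind each culture beyond calling the triplicates biological.

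CpG-B oligonucleotides bind TLR9 in endosomes, which signals through MYD88 to NF-kB and to the interferon regulatory factors. IRF5 is one of these factors and drives inflammatory cytokine and interferon genes in dendritic cells and macrophages. LYN is a Src-family kinase that can activate or restrain immune receptors, in part by recruiting the phosphatases SHP-1 and SHIP-1.

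Signals are given as log2 of the processed intensity minus the 75th percentile of the array, so a level of 0 is as bright as the 75th percentile of the probes. Levels of different probes are not compared. Between 42.9% and 49.6% of the spots on the 6 arrays were well above background, no spot was saturated, and arrays of 1 group correlated at 0.992 to 0.9941 over 20209 features. The label of a dendritic cell culture was set against cell type markers. The plasmacytoid gene Siglech stood at 7.62, 7.78 and 7.94 in DKO cells, against 7.74, 7.88 and 7.99 in Lyn-KO cells. Of the dendritic cell markers tested, 19 of 20 for plasmacytoid cells, 13 of 16 for type 1 conventional cells and 14 of 15 for type 2 conventional cells were well above background on all 6 arrays. So were 17 of 18 markers of monocytes and macrophages, 16 of 18 of B cells, 7 of 9 of basophils and mast cells and 10 of 15 of neutrophils. Tested genes had already passed a filter for signal in some group, so these counts cannot tell a dendritic cell culture from another mixture. The single Lyn probe averaged -1.10 in DKO and -0.23 in Lyn-KO cells, below the 2.21 of WT cells with CpG-B. It was thus lower in DKO than in Lyn-KO cells (log2 change -0.87 ± 0.09 SE, limma, adjusted p = 3.12e-07). The single Irf5 probe was at 5.17, 5.40 and 5.17 in DKO cells, against 4.49, 4.52 and 4.46 in Lyn-KO cells, and so was higher in the cells labelled as lacking Irf5 (log2 change 0.76 ± 0.09 SE, adjusted p = 2.41e-06). No source used here places the probe relative to the exons removed from Irf5, and its signal therefore does not check the knockout.

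Features are named as called where limma gave an adjusted p (Benjamini-Hochberg) under 0.05, and errors of log2 changes are standard errors of that fit over 3 arrays a group. Of 20209 features, 6374 were called, which is 31.5%. Among them 3405 (16.8%) were higher and 2969 (14.7%) were lower in DKO cells. The larger side depended on the scaling: quantile normalization gave 3069 higher and 3384 lower, and normexp background correction 2805 higher and 2941 lower. The changes were mostly small: 469 features (2.32%) were at least 2-fold higher and 518 (2.56%) at least 2-fold lower. At least 8-fold, 5 features were higher and 45 lower. The median log2 change over all features was 0.0066. The 3 values of each group did not overlap for 8762 features (43.4%).

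**Figure D1:**
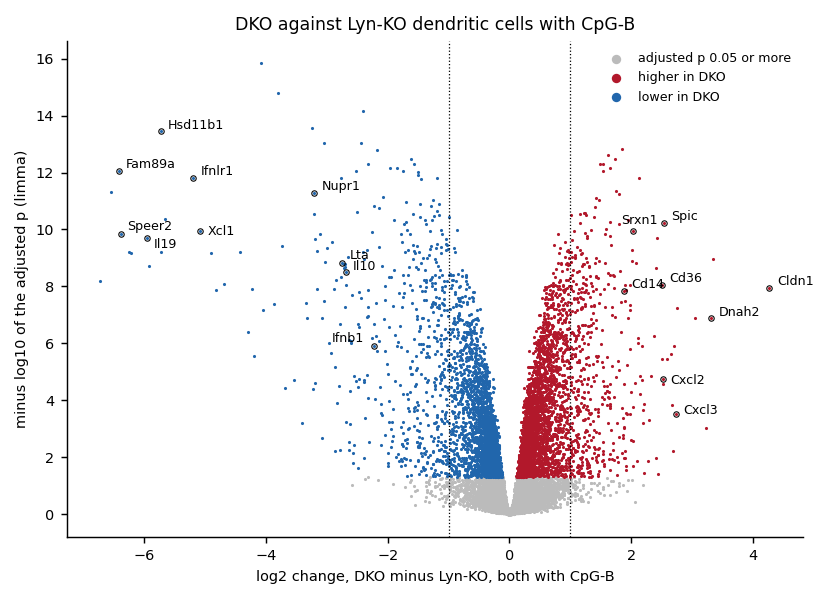
Each of the 20209 features is 1 point, with the log2 change of DKO minus Lyn-KO cells (both with CpG-B) on the x axis and minus log10 of the adjusted p on the y axis. Red points were called higher and blue points lower in DKO cells, dotted lines mark 2-fold, and Fam89a (-6.42) and Spic (2.54) are among the named genes. The size plotted for a gene that is not well above background in 1 group, such as Cldn1 or Il19, is not measured.

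The interferon genes were lower in DKO than in Lyn-KO cells. Of 19 type I and III interferon genes in the list, 14 were tested, 13 were lower and 0 were higher, and 12 were at least 2-fold lower. The 13 are 92.9% of those tested, against 14.7% of all features called lower. They became 12 with quantile normalization and 11 when any 1 array other than DKO replicate 1 was left out. The median log2 change of the 14 genes was -1.25. It was -0.93, -1.35 and -1.46 within the 3 slides, each of which held 1 array of every group. Ifnb1, the gene of interferon beta, stood at 2.93, 2.77 and 2.73 in DKO cells, against 4.99, 5.05 and 5.07 in Lyn-KO cells, and the groups did not overlap. Its log2 change was -2.23 ± 0.25, a 4.68-fold lower level in DKO cells (adjusted p = 1.27e-06). Ifna4, one of the interferon alpha genes, was at 1.03, 0.67 and 0.43 in DKO cells, against 2.12, 2.24 and 2.23 in Lyn-KO cells (log2 change -1.49 ± 0.36, adjusted p = 0.00379). The DKO arrays again lay below all Lyn-KO arrays. Ifna5 changed by -1.52 ± 0.27 and Ifna1 by -1.12 ± 0.15. The interferon alpha genes are near-identical copies, so a probe may read several of them and the change of one copy is uncertain. Ifnl3, a type III interferon, was lower by a smaller amount (-0.54 ± 0.12, adjusted p = 0.00212). Ifnk was at -1.92, -2.13 and -1.83 in DKO cells, against -2.09, -2.12 and -1.92 in Lyn-KO cells, and was the tested interferon gene that was not called (0.08 ± 0.19).

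The promoters of Ifnb1 and Ifna4 are shown as those of interferon beta, with the largest fall of the interferon genes, and of 1 interferon alpha gene, and that of Il19 because it had the largest change among the cytokine genes. Each runs 300 bases from 250 bases before the start of the gene, 5′ to 3′ on the strand of the gene, as given by RefSeq on GRCm38.p6. Capitals mark AANNGAAA, the core that interferon regulatory factors bind, searched on both strands. The Ifnb1 promoter lies at chr4:88522745-88523044 on the minus strand, that of Ifna4 at chr4:88841566-88841865 on the plus strand and that of Il19 at chr1:130940066-130940365 on the minus strand.
Ifnb1: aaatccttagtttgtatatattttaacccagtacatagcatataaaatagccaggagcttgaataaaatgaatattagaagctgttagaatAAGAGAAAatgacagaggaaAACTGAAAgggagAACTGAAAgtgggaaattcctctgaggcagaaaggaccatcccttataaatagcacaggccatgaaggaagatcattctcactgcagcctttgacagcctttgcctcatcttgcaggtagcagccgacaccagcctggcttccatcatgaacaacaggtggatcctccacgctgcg
Ifna4: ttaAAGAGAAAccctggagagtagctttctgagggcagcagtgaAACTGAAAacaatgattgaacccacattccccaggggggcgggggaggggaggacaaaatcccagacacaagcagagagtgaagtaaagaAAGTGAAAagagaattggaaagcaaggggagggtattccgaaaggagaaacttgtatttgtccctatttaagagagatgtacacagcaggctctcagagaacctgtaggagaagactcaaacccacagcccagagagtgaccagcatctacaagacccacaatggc
Il19: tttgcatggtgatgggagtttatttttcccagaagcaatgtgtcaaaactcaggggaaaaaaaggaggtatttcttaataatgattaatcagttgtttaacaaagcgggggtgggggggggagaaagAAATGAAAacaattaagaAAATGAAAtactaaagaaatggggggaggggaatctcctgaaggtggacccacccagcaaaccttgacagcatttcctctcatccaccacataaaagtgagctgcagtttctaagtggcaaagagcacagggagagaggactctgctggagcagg
The core begins at 3 places in the Ifnb1 window, 3 in that of Ifna4 and 2 in that of Il19. It occurred in 23.9% of all 32851 promoters of the table, in 21.9% of the tested genes that have an entry and in 11 of the 13 such interferon genes. The core was also in 38 of the 48 tested interferon-stimulated genes with an entry (79.2%), most of which were not called. Among the genes called at least 2-fold lower it was in 24.8% of 278 with an entry, and among those at least 2-fold higher in 24.8% of 278. These matches describe letters in the windows and show no binding.

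Plasmacytoid dendritic cells make most interferon alpha in such cultures, and their markers were split: 6 of 20 were higher, 6 were lower, and the median log2 change was 0.04. The summed level of these markers was 1535 to 1637 times the 75th percentile in DKO cells, against 1446 to 1568 in Lyn-KO cells. Here and below, such a sum adds signals of different probes, so the brightest probes weigh most and it can differ from the median change. At least 2-fold, 1 of the markers was higher (1.075) and 3 were lower. Klk1 (-3.17 ± 0.20), Ccr9, a homing receptor (-1.95 ± 0.14), and Tcf4, the transcription factor that keeps plasmacytoid identity (-0.45 ± 0.09), were among the lower ones, whereas Siglech was not called (-0.09 ± 0.12). These named genes are from the lower side of a split list and do not stand for the whole list. In bulk RNA, fewer cells of a type and less RNA per cell cannot be told apart, and the part of cell numbers in the interferon difference was not tested.

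Most genes that interferon induces were not called. Of 64 tested interferon-stimulated genes, 8 were higher (12.5%) and 1 was lower (1.56%), and the median log2 change was 0.14. Of all features 16.8% were higher and 14.7% lower, and of the features with a symbol 38.5% were called. The 8 became 3 without DKO replicate 1 or without Lyn-KO replicate 3, 4 without Lyn-KO replicate 1, and 5 without DKO replicate 3 or Lyn-KO replicate 2. Other settings raised the count. It was 14 with only the arrays of the comparison and 11 with a trended and robust variance prior. With probes well above background on all 24 arrays it was 11 of 56. Quantile normalization gave 3 higher and 2 lower. Rsad2, which encodes the antiviral protein viperin, was at 7.43, 7.05 and 7.42 in DKO cells, against 6.43, 6.50 and 6.57 in Lyn-KO cells (0.80 ± 0.28, adjusted p = 0.0352). Its call was lost in 6 of 15 alternative settings, 5 of them with 1 array left out, with an adjusted p between 0.0611 and 0.104. Cmpk2, a nucleotide kinase next to Rsad2 in the genome, rose by 0.69. The lower member was Ifit1bl1 (-0.83, adjusted p = 0.0299), whose call was lost without any 1 of the 6 arrays, with an adjusted p between 0.0521 and 0.0771. Isg15 (-0.06) and Irf7 (0.18) were not called.

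Among cytokine genes, a subset was much lower in DKO cells. Of 19 tested, 7 were lower (36.8%) and 3 were higher (15.8%), with a median of -0.14. Over all features 14.7% were lower and 16.8% higher. Il19, a member of the IL-10 family, was at -3.32, -3.93 and -3.18 in DKO cells, where no array was well above background, against 2.51, 2.59 and 2.36 in Lyn-KO cells. That is at least 49.3-fold lower, a bound set by the lowest signal among probes well above background on the dim arrays (adjusted p = 2.01e-10). Il10, the anti-inflammatory cytokine, was at -0.04, -0.72 and -0.36 in DKO cells, against 2.37, 2.35 and 2.24 in Lyn-KO cells (-2.69 ± 0.19, adjusted p = 3.02e-09). Lta, which encodes lymphotoxin alpha, was at 0.71, 0.86 and 0.87 in DKO cells, against 3.52, 3.54 and 3.62 in Lyn-KO cells (-2.75 ± 0.18, adjusted p = 1.5e-09). For all 3 genes the groups were far apart relative to the spread of their arrays. Both subunits of interleukin 27 were lower, Il27 by -1.12 ± 0.16 and Ebi3 by -0.79 ± 0.05, and so were Osm (-1.09 ± 0.15) and Tnfsf9, the ligand of the costimulatory receptor 4-1BB (-0.65). Il1b (0.51 ± 0.14), Ltb (0.44) and Il18 (0.30) were higher. Il1a had the largest positive change of the list but was not called (1.94 ± 0.99, limma, adjusted p = 0.154). It was called higher with normexp background correction and with only the arrays of the comparison. The call of Il18 was lost in 6 of 15 alternative settings, with an adjusted p up to 0.108, and that of Il1b in 2 of 15. Without Lyn-KO replicate 1, 1 cytokine gene was higher, and with normexp background correction 5 were higher and 8 lower.

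Il6 and Tnf, the classical inflammatory cytokines of this response, did not pass the test. Il6 was at 7.75, 7.95 and 7.79 in DKO cells, against 7.74, 7.87 and 8.0 in Lyn-KO cells, with overlapping groups (-0.04 ± 0.12, adjusted p = 0.849). Tnf was at 5.95, 6.03 and 5.80 in DKO cells, against 5.99, 6.05 and 6.15 in Lyn-KO cells (-0.14 ± 0.17, adjusted p = 0.595). Il12a, a subunit of interleukin 12, was also not called (-0.05).

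Chemokine genes moved in both directions. Of 17 tested, 5 were lower and 6 higher, with a median of 0.35 and values of 0.75, 0.34 and 0.02 within the slides. Xcl1, the ligand of the receptor XCR1 on type 1 conventional dendritic cells, was at -1.04, -0.76 and -1.07 in DKO cells, against 4.19, 3.93 and 4.26 in Lyn-KO cells (-5.08 ± 0.28, 33.9-fold lower, adjusted p = 1.12e-10). Other chemokine genes that attract T cells and monocytes were also lower, Ccl4 by -1.14 ± 0.16, Ccl5 by -0.65 ± 0.15 and Ccl3 by -0.47 ± 0.12. Genes of neutrophil-attracting chemokines were higher: Cxcl2 was at 2.32, 2.46 and 1.64 in DKO cells, against -0.63, -0.31 and -0.21 in Lyn-KO cells (2.52 ± 0.35, adjusted p = 1.74e-05). Cxcl3 (2.74 ± 0.50) and Cxcl1 (1.53 ± 0.36) rose as well, and so did Ccl22 (1.56 ± 0.24) and Ccl17 (1.14 ± 0.26), which attract cells with CCR4. Of 15 neutrophil and granulocyte markers 0 were called by limma, against 31.5% of all features (8048 features had an unadjusted p under 0.05), but 3 were lower without DKO replicate 1. Their medians within the slides were 0.26, -0.28 and -0.31. The markers of monocytes and macrophages, which can make these chemokines, were higher for 10 of 18 and lower for 1, and their summed level was 136 to 177 in DKO cells, against 89.6 to 100.4 in Lyn-KO cells. The 10 became 6 without DKO replicate 1, and the medians within the slides were 0.91, 0.48 and 0.29. Their part in the chemokine difference was not tested.

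**Figure D2:**
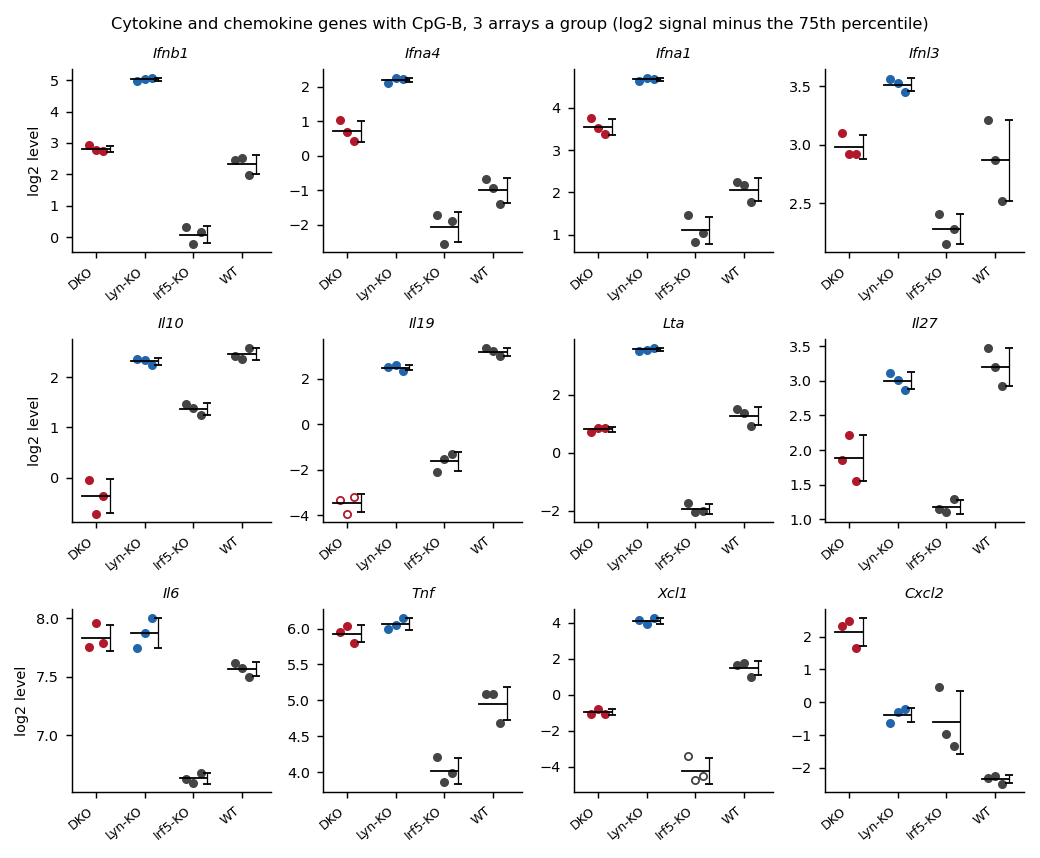
The log2 level of 12 cytokine and chemokine genes is plotted for the 3 arrays of each group with CpG-B, in the order DKO, Lyn-KO, Irf5-KO and WT. Points are arrays, the line is the mean, the bar is 1 SD, and open points mark groups in which not all 3 arrays were well above background. Ifnb1, Il10, Il19, Lta and Xcl1 lie lower in DKO than in Lyn-KO cells, Il6 and Tnf overlap between these 2 groups, and Cxcl2 lies higher.

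The receptors and adaptors of the pathway itself were called in part. Of 25 tested genes of TLR9 signalling, 8 were higher and 2 lower, with a median of 0.12, and quantile normalization gave 6 higher and 4 lower. That is near the share called among all features with a symbol (38.5%). Tlr9 was not called (-0.01), the adaptor gene Myd88 was higher (0.43) and the kinase gene Irak1 was lower (-0.45). Cd14, which encodes a co-receptor that helps the uptake of CpG DNA and is also a monocyte marker, was at 4.29, 4.34 and 3.69 in DKO cells, against 2.10, 2.26 and 2.31 in Lyn-KO cells (1.88 ± 0.15, adjusted p = 1.41e-08). The 9 interferon regulatory factors were also called near that share: Irf4 (-0.67 ± 0.10) and Irf8 (-0.65 ± 0.09) were lower, and Irf5 itself was the higher one. Irf3 (-0.13) was not called with this scaling and was called lower after quantile normalization (-0.20, adjusted p = 0.00665) and after normexp background correction (-0.20, adjusted p = 0.0259). Irf1 (0.51) and Irf2 (0.31) were not called either. Irf1 was called higher with only the arrays of the comparison, with probes well above background on all 24 arrays and with the trended variance prior. Irf2 was called higher with the replicate block and without Lyn-KO replicate 3.

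The list of NF-kB subunits and feedback regulators, which also holds other genes such as Ptgs2, Nos2 and Sqstm1, was more often higher. Of its 46 genes 25 were higher (54.3%) and 7 lower (15.2%), with a median of 0.31. The shares over all features were 16.8% and 14.7%. The subunit gene Rel (0.52) was called only when the arrays of the comparison were fitted alone. Ptgs2, the inducible cyclooxygenase (1.75 ± 0.24), Nos2, the inducible nitric oxide synthase (1.46 ± 0.17), Sqstm1, an autophagy receptor (1.24), and Tnfaip2 (1.21) rose by over 2-fold. Tnfaip3, which encodes the NF-kB inhibitor A20, rose by 0.50. The lower members included Dusp1, a phosphatase of MAP kinases (-1.53), Ier3 (-1.12), Socs3, a brake on cytokine receptors (-1.03), and Nfkbiz, a nuclear cofactor of secondary response genes (-0.85).

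Among 30 genes of Src-family kinases and inhibitory signalling, 15 were higher (50%) and 7 lower (23.3%), with a median of 0.30. Over all features these shares were 16.8% and 14.7%. Dok2, an adaptor that dampens tyrosine kinase signals, was at 0.35, 0.27 and 0.08 in DKO cells, against 2.80, 2.45 and 2.61 in Lyn-KO cells (-2.39 ± 0.15, adjusted p = 1.07e-09). The kinase gene Fgr was at 1.11, 0.92 and 0.92 in DKO cells, against 2.57, 2.57 and 2.56 in Lyn-KO cells (-1.58 ± 0.08). The kinase gene Blk was lower as well (-1.07 ± 0.21, with 1 of 3 DKO arrays well above background). The inhibitory receptor genes Sirpa (1.26 ± 0.08), Siglecg (1.04) and Pirb (0.85) and the kinase gene Syk (0.88 ± 0.07) rose.

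Maturation genes were higher in part: 13 of 30 were higher (43.3%) and 2 lower (6.67%), with a median of 0.26. Among all features 16.8% were higher and 14.7% lower. Cd83, a marker of mature dendritic cells, was at 7.83, 7.80 and 7.75 in DKO cells, against 6.95, 6.92 and 7.0 in Lyn-KO cells (0.84 ± 0.05, adjusted p = 4.36e-10). Icosl, the ligand of the T cell receptor ICOS, rose by 1.10 ± 0.12, Ciita, the master regulator of MHC class II, by 0.86, and the costimulatory genes Cd86 and Cd40 by 0.63 and 0.32. Fscn1, an actin bundler of mature dendritic cells, was lower (-0.71). The chemokine receptor gene Ccr7 was not called (-0.16). Of 15 genes of MHC class I loading, 8 were higher (53.3%) and 0 were lower, led by the peptide transporter gene Tap2 (0.84). The 8 became 5 without DKO replicate 2 or without Lyn-KO replicate 2.

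Many genes of the antioxidant and sterol pathways rose. Of 15 genes regulated by the transcription factor NRF2, 12 were higher (80%) and 0 lower, with a median of 0.93. Over all features the shares were 16.8% higher and 14.7% lower. Nqo1, a quinone reductase, was at -0.92, -1.40 and -0.94 in DKO cells, against -3.45, -3.98 and -2.80 in Lyn-KO cells, where 1 of 3 arrays was well above background (2.32 ± 0.32, adjusted p = 1.45e-05). Srxn1, the gene of sulfiredoxin, was at 4.48, 4.22 and 4.15 in DKO cells, against 2.12, 2.30 and 2.34 in Lyn-KO cells (2.03 ± 0.11, adjusted p = 1.12e-10). Thioredoxin reductase (Txnrd1, 1.23), peroxiredoxin (Prdx1, 1.17) and heme oxygenase (Hmox1, 1.15) followed. Slc7a11, the cystine transporter, was at -1.54, -1.81 and -2.65 in DKO cells, against -4.83, -5.84 and -0.93 in Lyn-KO cells, and 1 Lyn-KO array decided its call: the log2 change was 1.87 (adjusted p = 0.0935) with all arrays and 3.34 (adjusted p = 4.9e-05) without Lyn-KO replicate 3.

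Of 23 genes of cholesterol synthesis and uptake, 21 were higher (91.3%, against 16.8% of all features) and 1 lower. The median was 0.77, with values of 0.71, 0.80 and 0.88 within the slides. Lss, the lanosterol synthase (1.12), and Mvd, a decarboxylase of the mevalonate pathway (1.03), were among the higher ones, and Pmvk was the lower one (-0.50). Msmo1 was at 6.19, 6.15 and 6.35 in DKO cells, against 5.46, 5.30 and 3.78 in Lyn-KO cells (1.38 ± 0.37, adjusted p = 0.00725). The low value was Lyn-KO replicate 3, and without it the log2 change was 0.85 and the call was lost (adjusted p = 0.0509).

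Most of the further stress and metabolic lists held more higher than lower genes. The shares over all features were 16.8% higher and 14.7% lower. Glycolysis and hypoxia genes were higher for 14 of 24 and lower for 2 (median 0.34), with the lactate exporter gene Slc16a3 at 1.20. Endoplasmic reticulum chaperones were higher for 12 of 20 and lower for 0 (median 0.26), led by Herpud1 (0.97). Heat shock genes were higher for 3 of 13 (23.1%) and lower for 1 (7.69%, median 0.06), near the 31.5% called over all features. These counts turned to 1 higher and 3 lower under quantile normalization and to 1 and 1 under normexp. The integrated stress response genes were higher for 17 of 28 and lower for 4 (median 0.32). Asns, asparagine synthetase (1.05), and Trib3, a pseudokinase (0.80), were among the higher ones. Nupr1, a stress-induced nuclear protein gene placed in this list, went the other way: it was at 3.25, 3.43 and 3.04 in DKO cells, against 6.41, 6.54 and 6.38 in Lyn-KO cells (-3.21 ± 0.14, 9.22-fold lower, adjusted p = 5.06e-12).

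Cell cycle genes were lower. Of 29 tested, 25 were lower (86.2%, against 14.7% of all features) and 1 was higher. The 25 became 18 with only the arrays of the comparison and 20 to 24 when 1 array was left out. The median was -0.38, with values of -0.46, -0.31 and -0.35 within the slides. The replication helicase genes Mcm5 (-0.91 ± 0.09), Mcm2 (-0.87) and Mcm4 (-0.81) and the transcription factor gene E2f1 (-0.76) showed the largest changes. Tpx2, a spindle assembly factor, was the higher one (0.39). Mki67, a marker of dividing cells, was lower by a small amount (-0.20), and its call was lost in 9 of 15 alternative settings, with an adjusted p up to 0.182.

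**Figure D3:**
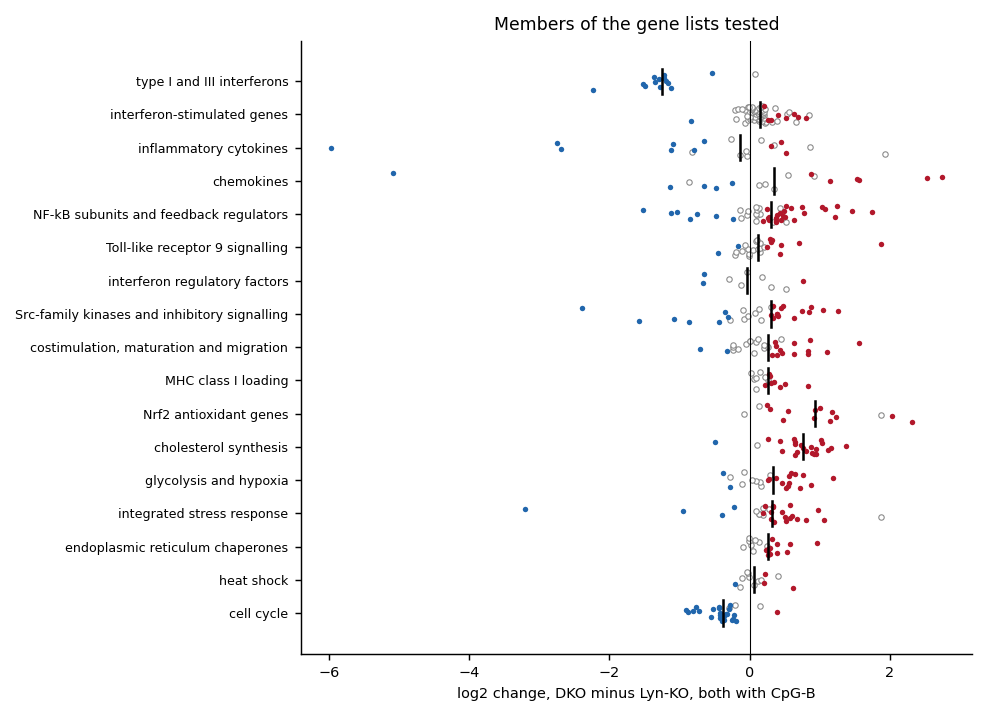
Each point is 1 tested gene of a list, placed by its log2 change of DKO minus Lyn-KO cells with CpG-B; red points were called higher, blue points lower and open points were not called, and the black bar is the median of the list. The interferon list (median -1.25) and the cell cycle list (-0.38) lie to the left, and the NRF2 (0.93) and cholesterol lists (0.77) to the right.

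The marker lists of B cells, of T and NK cells and of erythroid cells were called at about the share of all features (31.5%). For features with a symbol that share was 38.5%. The lists of both conventional dendritic cell types and of basophils and mast cells were called more often. Type 1 conventional dendritic cell markers were higher for 8 of 16 and lower for 5 (median 0.28): Naaa, a lysosomal amidase (2.01 ± 0.12), and Xcr1 (1.79 ± 0.24) were higher, whereas Batf3, a transcription factor this lineage needs (-1.31 ± 0.15), was lower. The call of Clec9a (0.26 ± 0.08) was lost in 8 of 15 alternative settings, with an adjusted p up to 0.132. With normexp background correction 4 type 1 markers were higher. Type 2 markers were higher for 5 of 15 and lower for 3 (median 0.34). Basophil and mast cell markers were higher for 6 of 9 and lower for 0 (median 1.20), with summed levels of 51.9 to 58.2 in DKO cells, against 41.6 to 45.7 in Lyn-KO cells. The 6 became 4 without DKO replicate 3 or without Lyn-KO replicate 3. With normexp, with the replicate block, without DKO replicate 2 or without Lyn-KO replicate 1, 1 of these markers was lower. Mcpt8, a basophil protease gene, was at 0.22, 0.30 and 0.46 in DKO cells, against -0.56, -1.44 and -1.36 in Lyn-KO cells (1.45 ± 0.26, adjusted p = 0.000266). In B cell markers 3 of 18 were higher and 3 lower, among them Ms4a1, which encodes CD20 (1.38), and Cd79b, a subunit of the B cell receptor (-1.15). T and NK cell markers were higher for 3 of 10 and lower for 0, and Cd3e was not called (-0.15). Erythroid markers were higher for 1 of 3. The part of these cells in any gene difference was not tested.

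The largest changes lay outside most of the lists and ran mainly downward. Hsd11b1, which encodes the enzyme that regenerates active glucocorticoid inside cells, was at -2.56, -3.30 and -3.23 in DKO cells, where 2 of 3 arrays were well above background, against 2.96, 2.49 and 2.65 in Lyn-KO cells (-5.73 ± 0.17, adjusted p = 3.61e-14). Fam89a was at -0.74, -1.06 and -1.32 in DKO cells, against 5.42, 5.48 and 5.23 in Lyn-KO cells (-6.42 ± 0.24, 85.6-fold lower, adjusted p = 8.89e-13). Ifnlr1, the chain of the interferon lambda receptor that binds the ligand, was at -3.34, -3.05 and -2.64 in DKO cells, where 1 of 3 arrays was well above background, against 1.95, 2.15 and 2.46 in Lyn-KO cells (-5.20 ± 0.21, adjusted p = 1.52e-12). That the groups do not overlap for these genes was part of how they were chosen. Rhbdl3, a gene of the rhomboid protease family, was at least 21.9-fold lower, and Plekhs1 changed by -4.82 ± 0.38 with 1 of 3 DKO arrays well above background. Mest, an imprinted gene that lies 1.21 Mb from Irf5 on chromosome 6 in GRCm38.p6, was at -5.21, -5.10 and -4.91 in DKO cells, none well above background, against -0.38, -0.06 and -0.07 in Lyn-KO cells, at least 8.52-fold lower (adjusted p = 6.86e-10). Within 20 Mb of Irf5, 36 of 125 tested genes were higher and 20 lower (44.8%, against 38.5% of all features with a symbol), and within 20 Mb of Lyn 13 of 51 were higher and 10 lower (45.1%).

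A family of related genes filled 5 of the 15 largest falls by symbol. The Speer family includes genes of proteins described in the testis, and the symbols of Speer5-ps1 and Speer6-ps1 mark pseudogenes. The 5 tested members were grouped because they stood among the largest falls, so that their common direction was fixed by the choice. Speer1 was at -1.67, -2.71 and -2.99 in DKO cells, against 2.94, 3.29 and 3.35 in Lyn-KO cells (-5.65 ± 0.29, 50.4-fold lower, adjusted p = 4.33e-11). Speer2 was at -3.67, -4.97 and -4.12 in DKO cells, with no array well above background, against 2.09, 2.60 and 1.72 in Lyn-KO cells, at least 42.1-fold lower. Speer6-ps1 was at least 21.4-fold lower, Speer3 at least 18.3-fold lower, and Speer5-ps1 changed by -4.42 ± 0.27. The family consists of near-identical copies, so which member the probes read is uncertain. The genes 4933402N22Rik (-6.25 ± 0.39, 1 of 3 DKO arrays well above background) and Gm6460 (at least 24.9-fold lower) also stood among the 15.

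The largest increases were smaller. Cldn1, a tight junction gene, was at -1.25, -1.16 and -1.26 in DKO cells, against -5.85, -5.88 and -4.76 in Lyn-KO cells, none of them well above background, so that it was at least 5.42-fold higher (adjusted p = 1.13e-08). Spic, a transcription factor gene of heme-handling macrophages, was at 6.55, 6.47 and 6.69 in DKO cells, against 4.05, 4.01 and 4.02 in Lyn-KO cells (2.54 ± 0.13, 5.83-fold higher, adjusted p = 5.89e-11). Cd36, a scavenger receptor gene, was at 1.74, 2.01 and 2.30 in DKO cells, against -0.85, -0.56 and -0.06 in Lyn-KO cells (2.51 ± 0.19, adjusted p = 8.78e-09). Dnah2, a dynein heavy chain gene (3.32 ± 0.31), Sema4f, a semaphorin gene (2.71 ± 0.30), and Pdpn, the gene of podoplanin (2.59 ± 0.32), were well above background on all 6 arrays. Thbd, which encodes thrombomodulin, was at least 3.85-fold higher, Nrn1 at least 2.74-fold, Cass4 at least 2.55-fold and Cypt15 at least 2.40-fold. Gpr141 (2.76 ± 0.24) and the arginine transporter gene Slc7a2 (2.67 ± 0.45) were well above background on 1 of 3 Lyn-KO arrays, and Tnnt2 changed by 2.42 ± 0.69.

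**Figure D4:**
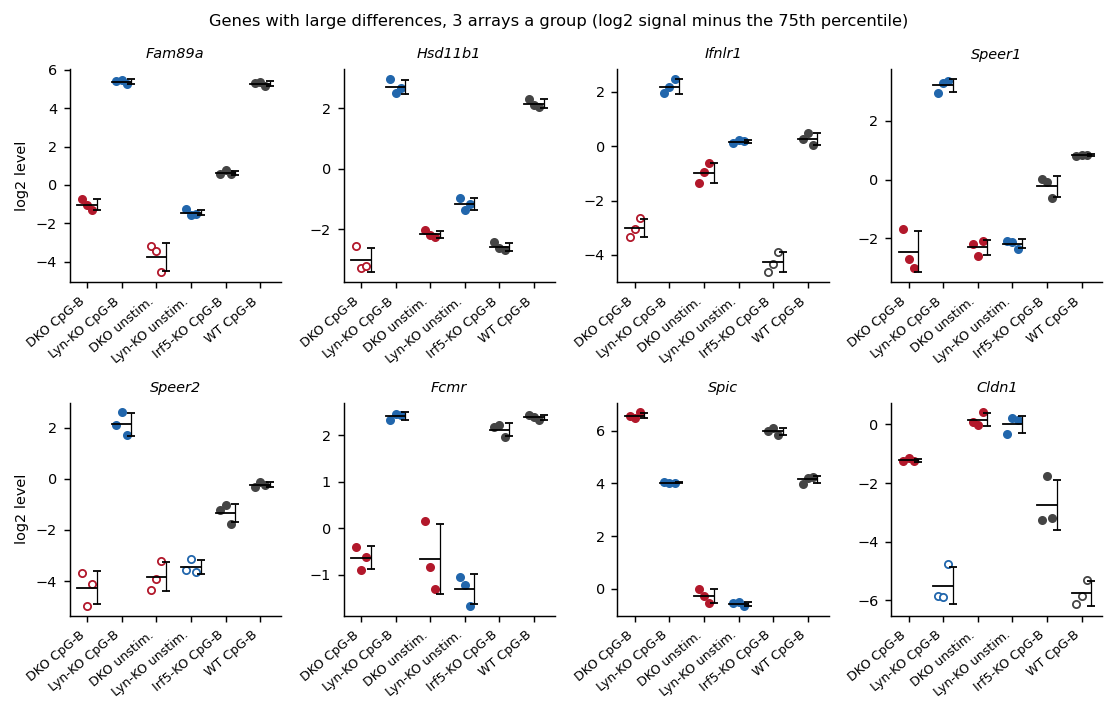
The log2 level of 8 genes is plotted for the 3 arrays of DKO and Lyn-KO cells with CpG-B, the same genotypes unstimulated, and Irf5-KO and WT cells with CpG-B. Points are arrays, the line is the mean, the bar is 1 SD, and open points mark groups in which not all 3 arrays were well above background. Speer1 is bright in Lyn-KO cells with CpG-B (2.94 to 3.35) and dim in DKO cells (-2.99 to -1.67), and Spic is brighter in DKO (6.47 to 6.69) than in Lyn-KO cells (4.01 to 4.05).

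Without CpG-B, far fewer features separated DKO from Lyn-KO cells. Of 20209 features, 33 were called (0.163%), 18 higher (0.0891%) and 15 lower (0.0742%), and 1351 had an unadjusted p under 0.05. At least 2-fold, 12 (0.0594%) were higher and 7 (0.0346%) lower. This count moved to 54 without DKO replicate 3 and to 20 without Lyn-KO replicate 3 of the unstimulated arrays, and to 0 when the other 18 arrays were kept out of the fit. Of the 33 features, 20 were called in the same direction with CpG-B and 2 in the opposite direction. Ifnlr1 (-1.14 ± 0.21) and Hsd11b1 (-0.99 ± 0.17) were lower already before stimulation. Fam89a was called lower as well, with none of the unstimulated DKO arrays well above background. Among the integrated stress response genes 6 of 28 were higher, with Asns at 1.27 and Trib3 at 1.17, and of the basophil markers Prss34 was higher (1.19 ± 0.16).

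The change of the CpG-B response was tested as the response in DKO cells minus that in Lyn-KO cells. It was called for 3783 features (18.7%), 2073 in the higher (10.3%) and 1710 in the lower direction (8.46%). Quantile normalization gave 1775 higher and 1946 lower, and normexp 1553 and 1594. Of the 987 features that differed at least 2-fold with CpG-B, 753 were also called here in the same direction; the 2 contrasts share the stimulated arrays. The responses of Il19, Il10 and Lta were called as lower in DKO cells, but at least 1 unstimulated group had no array well above background for each, so the size was not measured. That of Ifnb1 differed by -1.74, with 1 of 3 arrays well above background in each unstimulated group. The response of Hsd11b1 differed by -4.74 ± 0.24, that of Spic by 2.27 ± 0.19 and that of Cd36 by 1.88 ± 0.27. Cldn1 averaged 0.16 in DKO and 0.01 in Lyn-KO cells before stimulation.

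The same loss of Irf5 in cells that have Lyn was read from Irf5-KO against WT cells with CpG-B, which share no array with DKO or Lyn-KO cells. There 5154 features were called (25.5%), 2914 higher (14.4%) and 2240 lower (11.1%). Of these, 2034 were higher in both comparisons, which is 59.7% of those higher without Lyn and 69.8% of those higher with Lyn. Another 1543 were lower in both, 52.0% and 68.9% of the 2 lists in the same order, and 75 were called in opposite directions. For Ifnb1 the loss of Irf5 gave -2.23 ± 0.25 without Lyn and -2.24 ± 0.25 with Lyn, and for Xcl1 -5.08 ± 0.28 and -5.71 ± 0.28. Of the 14 interferon genes 11 were lower with Lyn present, with a median of -0.97, and the difference between both settings was called for 0 of them by limma.

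The difference of the Irf5 effect without and with Lyn was called for 730 features (3.61%), 332 in the higher (1.64%) and 398 in the lower direction (1.97%), and for 175 of the 987 features that differed at least 2-fold between DKO and Lyn-KO cells. Il6 fell by 0.93 ± 0.12 in Irf5-KO relative to WT cells and gave -0.04 ± 0.12 between DKO and Lyn-KO cells (difference 0.89 ± 0.17, adjusted p = 0.00575). Tnf fell in Irf5-KO relative to WT cells (-0.94 ± 0.17), and its difference did not pass the test (0.80 ± 0.23, adjusted p = 0.0699). Il10 fell further without Lyn than with it (-2.69 against -1.10, difference -1.59 ± 0.27, adjusted p = 0.00194), and Il27 fell less (-1.12 against -2.02, difference 0.90 ± 0.22, adjusted p = 0.0284). Irf8 also fell less without Lyn (-0.65 against -1.50, difference 0.85 ± 0.13, adjusted p = 0.000931). Fcmr, an Fc receptor gene in the B cell list, was at -0.40, -0.90 and -0.61 in DKO cells, against 2.32, 2.47 and 2.45 in Lyn-KO cells, and at 2.18, 2.22 and 1.97 in Irf5-KO cells, against 2.44, 2.40 and 2.33 in WT cells (difference -2.78 ± 0.36, adjusted p = 0.000225). Speer1 (-4.60) and Speer5-ps1 (-3.57), the Speer genes well above background in all 4 groups, had a called difference. In the cell cycle list 5 of 29 had a called difference, all in the lower direction, among them Mcm5 (-0.89 ± 0.12, adjusted p = 0.000455).

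**Figure D5:**
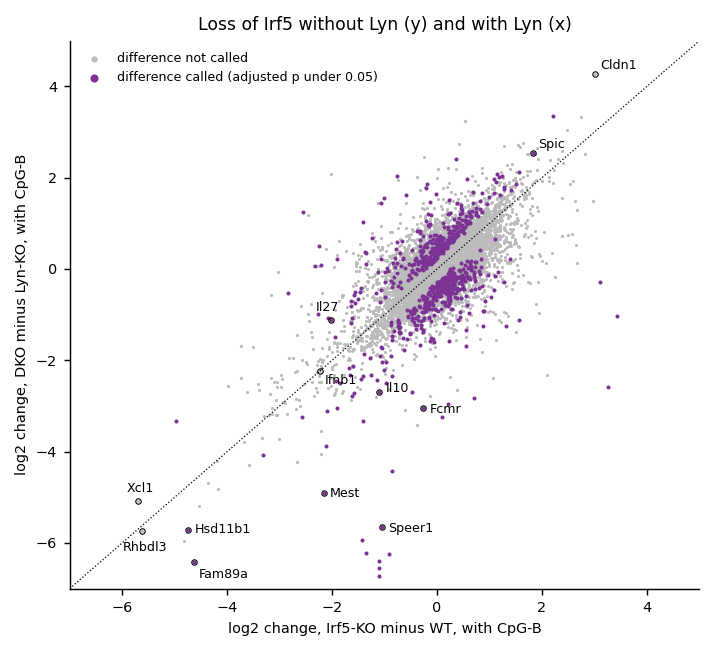
Each feature is 1 point, with the log2 change of Irf5-KO minus WT cells on the x axis and of DKO minus Lyn-KO cells on the y axis, all with CpG-B. Purple points had a called difference between both changes (730 of 20209), and the dotted line marks equal changes. Xcl1, Rhbdl3 and Ifnb1 lie near the line, whereas Speer1 and Fcmr lie far below it.

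The Lyn-KO level from which these falls are measured differed itself from WT. Lyn-KO against WT cells with CpG-B had 5084 called features (25.2%), 2818 higher (13.9%) and 2266 lower (11.2%), or 2490 higher and 2558 lower with median scaling; this contrast shares the Lyn-KO arrays with the one above, so the values only stand side by side. Ifnb1 was 2.72 ± 0.25 higher in Lyn-KO than in WT cells, and in DKO cells it averaged 2.81 ± 0.104 (SD, n = 3 in each group), against 5.04 ± 0.0455 in Lyn-KO, 0.0794 ± 0.265 in Irf5-KO and 2.32 ± 0.300 in WT cells. All 14 tested interferon genes were higher in Lyn-KO than in WT cells (median 2.80). Lta (2.29 ± 0.18) and Xcl1 (2.63 ± 0.28) were higher, whereas Il10 (-0.14 ± 0.19), Il19 (-0.71 ± 0.34) and Fam89a (0.11 ± 0.24) were not called.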

How the data were processed

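RNA of 24 dendritic cell cultures, 3 for each of 8 groups, was hybridised to 1-colour Agilent arrays, 1 array each. The authors deposited scanner files, which per the file headers came from Agilent Feature Extraction 10.7.3.1 and whose processed signal is a background-corrected intensity. The authors also deposited a table of normalized log2 values, centred on each probe's median, which served as an alternative; its differences matched those used here within 0.0238 for 95% of the comparisons over 13396 probes. Control spots and 4351 outlier spot values were removed, repeat spots of 1 probe were averaged, and log2 intensity minus each array's 75th percentile was taken. Probes were kept (26640) where some group had all 3 of its arrays well above background, and the probe with the highest mean stood for a gene, giving 20209 features, 12648 of them with a symbol. Groups were taken from the titles. All 8 groups were fitted together with limma 3.58.1 in R 4.3.3, with 6 contrasts and Benjamini-Hochberg adjustment over all features. The procedure was tested on simulated data. Named genes are the 15 largest called changes in each direction with a symbol, brighter group well above background on 3 arrays and no overlap, together with Irf5, Lyn and members of 26 gene lists; the Speer family and the genes named under other observations were chosen after their values were seen. Some list members are not reported here by name. The members and lists were chosen with earlier results of these data known. Nothing beyond the word biological for the triplicates ties arrays to animals, and precision is limited by having 3 arrays a group. The alternatives changed the background correction, the scaling, the filter, the probe rule, the arrays fitted, the replicate block and the variance prior, and left out each array in turn.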

Additional observations from a re-analysis of the deposited data

Results flagged for a closer look

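The effect of losing Irf5 under CpG-B differed without and with Lyn for 730 features, by the test of that difference in limma. Among the genes named, the difference was negative, so that the level changed further downward without Lyn, for Speer1 (-4.60), Speer5-ps1 (-3.57), Fam89a (-1.79), Hsd11b1 (-0.98, 2 of 3 DKO arrays well above background) and 4933402N22Rik (-5.33, 1 of 3). Speer2, Speer3, Speer6-ps1, Gm6460, Mest, Cass4 and Fcer1a had a group with no array well above background, so no size is given for them. It was also negative for the cytokine genes Il10 (-1.59) and Ccl9 (-0.50), for Ier3 (-0.64), for the B cell genes Fcmr (-2.78) and Cd79b (-1.04), and for the cell cycle genes Mcm5 (-0.89), Mcm2 (-0.71), E2f1 (-0.52) and Mcm4 (-0.45). It was positive for the basophil and mast cell genes Cpa3 (2.80), Mcpt8 (2.51) and Prss34 (1.38), whose levels were measured beside those of all other cell types and whose part in other differences was not tested. It was positive as well for Tbx21 (2.30), Myb (1.01), Il27 (0.90), Il6 (0.89), Irf8 (0.85), Srxn1 (0.78), Tnfaip2 (0.78), Txnrd1 (0.75), Spic (0.72), Cd86 (0.54) and Tnfaip3 (0.51).

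The difference between DKO and Lyn-KO cells changed with CpG-B for 3783 features, by the same kind of test. For the genes followed through the response, it was negative for Hsd11b1 (-4.74, 2 of 3 DKO arrays with CpG-B well above background), Xcl1 (-4.52), Ifnlr1 (-4.06, 1 of 3), Ifnb1 (-1.74, 1 of 3 in each unstimulated group) and Lyn (-0.86), and positive for Spic (2.27), Cd36 (1.88) and Irf5 (1.05). Il19, Il10, Lta, Fam89a and Cldn1 had a group with no array well above background, and no size is given for them.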

How the results depend on the processing

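No called change of a named gene between DKO and Lyn-KO cells with CpG-B reversed its direction under any alternative run. The features called between DKO and Lyn-KO cells with CpG-B numbered 2937 to 3098 higher and 2475 to 2812 lower when 1 array was left out. Without the filter 3 plasmacytoid markers were higher, against 6 with it. The unstimulated comparison, with 33 features, fell to 21 without a filter on dim probes, to 21 with probes well above background on all 24 arrays and to 0 when only its own arrays were fitted, and it ranged from 20 to 54 when 1 array was left out. The difference of the Irf5 effect, with 730 features, fell to 351 without the filter and to 304 with only its own arrays, and ranged from 490 to 922 when 1 array was left out; the causes were not tested. Of the values computed for named genes under the alternatives, 66 lost their call, 12 gained one and the others kept their side of the threshold. The interferon genes kept a median between -1.38 and -1.16, except that only 1 of them was well above background on all 24 arrays (-0.54). Over all lists and alternatives, 54 medians moved by more than the SD of the list's medians within the slides, and 351 did not. With the replicate number as a block, 3677 features were higher and 3212 lower, and the unstimulated comparison had 39; of 153 named genes 2 lost their call and 1 gained one. DKO and Lyn-KO arrays with CpG-B and the same number deviated from their group means with correlations of 0.131, 0.0514 and 0.104. For different numbers the correlations were -0.105 to -0.0046. The main fit did not pair the arrays by number, and the fit with the block is the alternative that does. Each array lies on the slide of its number, so slide and replicate number are the same block. Levels near background limit the folds given as bounds.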

Other observations

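Tbx21, the gene of the transcription factor T-bet, and Myb were chosen after their values were seen. Tbx21 was at -1.25, -0.60 and -1.26 in DKO cells, against -0.90, -1.19 and -1.29 in Lyn-KO cells (0.09, not called), and at -1.93, -1.72 and -1.58 in Irf5-KO cells, against 0.47, 0.33 and 0.63 in WT cells (-2.22 ± 0.16). The difference between both effects was 2.30 ± 0.22 (limma, adjusted p = 1.06e-05). Myb, a transcription factor gene of progenitors, changed by -0.57 in DKO against Lyn-KO cells and by -1.59 in Irf5-KO against WT cells, a difference of 1.01.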
